A study of Caenorhabditis elegans with 32 samples.

Results

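The libraries described here came from hrde-1 mutant Caenorhabditis elegans under normoxia, sampled in the parental generation P0 and in the descendant generations F1, F2 and F3, with 2 replicates each. These 8 libraries, of 32 in the series, were chosen by the strain, treatment and generation in the column names of the count table, with earlier results of these data known. The series crosses hrde-1 and wild-type (WT) worms with hypoxia and normoxia over the same 4 generations, and measures poly(A) RNA of whole worms grown with food at 20 °C. The hypoxia protocol kept L4 larvae for 16 h at 0.1% oxygen before their return to ambient oxygen, without naming the generations exposed, and the normoxia groups are the untreated ones. F1 to F3 of hrde-1 normoxia were set against P0 of hrde-1 normoxia, and the size of that difference was compared with that of the 8 hrde-1 hypoxia libraries and of 6 WT normoxia libraries (P0, F1 and F3). The labels name neither the hrde-1 allele nor the stage, day or batch of harvest. Generation therefore cannot be told apart from anything else that differed between harvests. No label ties the replicates to separate cultures. The p-values therefore cover the spread between these samples alone, and that spread may be technical.

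HRDE-1 belongs to the Argonaute proteins and works in germ-cell nuclei. Guided by small RNAs, it acts on nascent transcripts and directs repressive chromatin to their genes, so that RNA interference and the silencing of endogenous targets pass to descendants. Worms that lack it lose this inheritance, and hrde-1 mutants can become sterile over successive generations at raised temperature. Untreated mutant generations are the baseline for any inherited response in this strain, and the comparison asks how far that baseline itself moved. The hrde-1 transcript was present in all 8 libraries, at 338 to 611 CPM (counts scaled to the size of the library), and so cannot serve as a check of the mutant label.

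The 8 libraries held between 9722580 and 16103275 estimated counts. Markers of the tissues of a whole worm were found in them: 26 of 26 muscle, 18 of 18 intestine, 21 of 22 neuronal and 36 of 36 meiosis and germline genes passed the filter on low counts. Replicates were not equally alike. Over the 14011 genes tested, log2 CPM correlated with Pearson's r of 0.951 between the P0 replicates, 0.982 between the F1 replicates, 0.946 between the F2 replicates and 0.900 between the F3 replicates. F2 replicate 1 and F3 replicate 2 stood apart from their own replicates and were closest to each other, with r of 0.976. F2 replicate 2 was closest to F3 replicate 1 (r of 0.964), but F3 replicate 1 was closest to F1 replicate 1 (r of 0.973). More than 2-fold differences covered 7.8% of genes between F2 replicate 1 and F3 replicate 2, and 13.4% between F2 replicate 2 and F3 replicate 1. They also covered 13.4% between F1 replicate 1 and F3 replicate 1. Between the replicates as labelled they covered 21.5% in F2 and 28.9% in F3. Among all 31 other libraries, F2 replicate 1 and F3 replicate 2 were most like the 2 hrde-1 hypoxia libraries of F3, with r of 0.980 and 0.979. F2 replicate 2 and F3 replicate 1 were both most like replicate 1 of hrde-1 hypoxia F2, with r of 0.966 and 0.973. These correlations are taken across genes within shared scaling and are descriptions of the libraries. The labels give no means to tell whether libraries were exchanged between F2 and F3, so each F2 and F3 value, and any order of those generations, holds only as labelled.

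**Figure D1:**
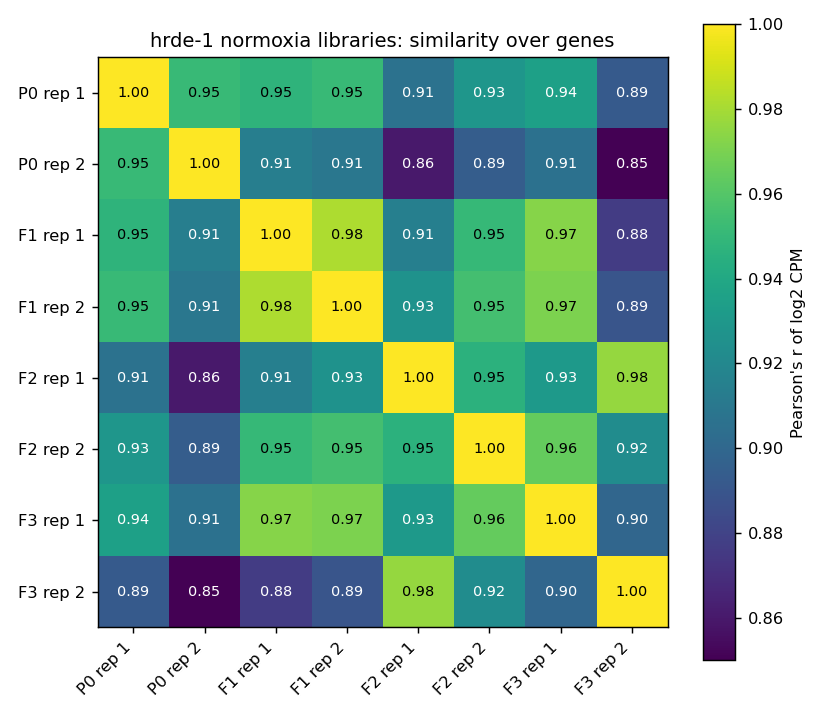
Pearson's r of log2 CPM over 14011 genes between each pair of the 8 hrde-1 normoxia libraries, shown as colour and number. The F1 replicates are the most alike pair of one generation, while F2 replicate 1 and F3 replicate 2 are closer to each other than to their own replicates.

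Between F1 to F3 and P0, 39 genes passed the test (edgeR's quasi-likelihood test, Benjamini-Hochberg adjusted p under 0.05), which is 0.278% of the genes tested. Of these, 8 were higher in F1 to F3 (0.0571%) and 31 were lower (0.221%), and at an unadjusted p under 0.05 there were 2753 genes. The median log2 fold change of all genes tested was -0.05. In each of the 39 genes all 6 later libraries lay on one side of both P0 libraries, as they did in 1107 genes above P0 (7.9%) and 1456 genes below P0 (10.4%). The 39 genes lay on all 6 chromosomes, from 4 on chromosome III to 10 on chromosome V. Taken singly, F1 differed from P0 in 1 gene (0.00714%), F2 in 2 genes (0.0143%) and F3 in 1 gene (0.00714%). These were acdh-1 in each generation and fat-7 in F2, the same genes that differed among all 4 generations tested together (2 genes, 0.0143%). The single-generation comparisons share the P0 libraries.

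No gene passed the edgeR test between the later generations themselves. For F2 against F1 there were 1363 genes at an unadjusted p under 0.05, for F3 against F1 there were 1750, and for F3 against F2 there were 44. DESeq2 called 191, 416 and 0 genes in the same order. The count of 39 depended on single libraries, being 2 without either F1 library or without F2 replicate 2, 9 without P0 replicate 2, 13 without F2 replicate 1, 424 without P0 replicate 1, 563 without F3 replicate 1 and 700 without F3 replicate 2. Without both F2 replicate 1 and F3 replicate 2, a choice made after seeing the data, it was 458, and DESeq2 on all 8 libraries called 1081. In all 18 alternatives acdh-1 and fat-7 were called, and the sign of each of the 39 genes was the same wherever it was tested.

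**Figure D2:**
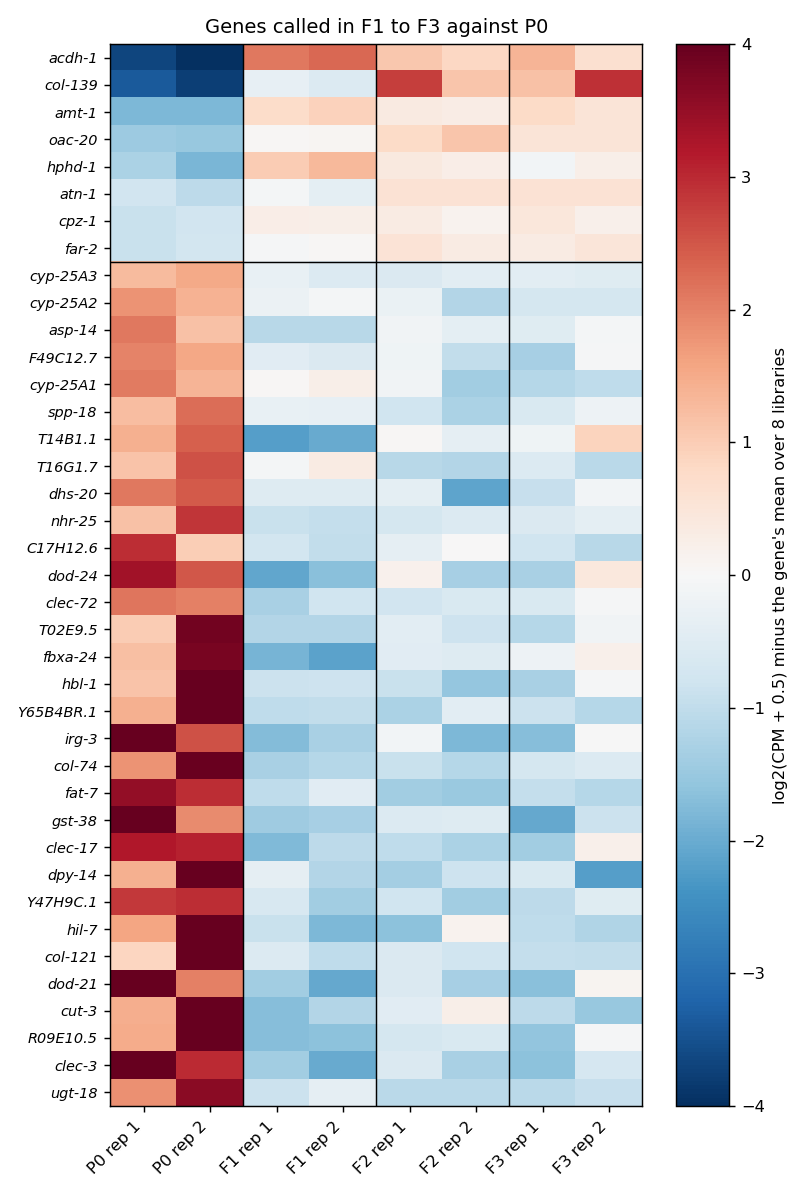
Level of the 39 genes called between F1 to F3 and P0 in each library, as log2(CPM + 0.5) minus the gene's mean over the 8 libraries, with genes ordered by fold change, the 8 higher genes above the line and colours saturated at 4 either way. Both P0 libraries differ from all 6 later ones in every row, and many lower genes are strongest in only one P0 replicate.

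Among the called genes, the largest increase was in acdh-1 (chromosome I, 6497436 to 6499560), an acyl-CoA dehydrogenase that opens the propionate shunt, the route that breaks down propionate when vitamin B12 is scarce. It had 4.02 and 1.86 CPM in P0, 248 and 286 CPM in F1, 121 and 102 CPM in F2, and 147 and 88.9 CPM in F3. All later libraries lay far above P0, and F1 lay above F2 and F3. The log2 fold change over P0 was 5.68 ± 0.42 (SE; edgeR adjusted p = 0.00518). Taken singly, F1 differed from P0 by 6.49 ± 0.46, F2 by 5.23 ± 0.43 and F3 by 5.32 ± 0.43 on the log2 scale, with edgeR adjusted p of 0.00662, 0.024 and 0.0216. The lower level of F3 than F1 did not pass (log2 fold change -1.18, edgeR adjusted p = 0.326).

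A later enzyme of the same shunt, hphd-1 (chromosome II, 12994354 to 12996571), had 29.5 and 20.2 CPM in P0, 146 and 179 CPM in F1, 95.9 and 87.3 CPM in F2, and 66.4 and 85.7 CPM in F3. It was higher in every later library, by 2.07 ± 0.24 on the log2 scale (SE; edgeR adjusted p = 0.0437). Of 15 genes of propionate breakdown and vitamin B12 use, a list added after values were seen, 2 were called higher and 0 lower, against 0.0571% and 0.221% of all genes, and 6 lay above both P0 libraries in all later ones, against 7.9%. The median log2 fold change of the 15 was 0.35. The shunt genes ech-6 and hach-1, named after their values were seen, had log2 fold changes of 1.04 and 0.66 and edgeR adjusted p of 0.112 and 0.117. For mmcm-1, the methylmalonyl-CoA mutase of the B12-dependent route, it was 0.14 with an edgeR adjusted p of 0.684.

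The lowest adjusted p was that of fat-7 (chromosome V, 7151353 to 7153146), a stearoyl-CoA desaturase that introduces the first double bond into saturated fatty acids. It had 0.435 to 1.41 CPM in F1 to F3, with a median of 0.748, against 29.9 and 19.8 CPM in P0. All later libraries lay far below both P0 libraries. The log2 fold change was -5.05 ± 0.34 (SE; edgeR adjusted p = 0.00441). Its close paralog fat-6 had 471 to 778 CPM in F1 to F3, against 276 and 756 CPM in P0, and did not pass (log2 fold change 0.21, edgeR adjusted p = 0.82). The lipid metabolism list held 1 called gene in each direction among 26 tested, acdh-1 and fat-7, with a median log2 fold change of 0.01. Of all genes, 0.0571% were called higher and 0.221% lower.

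**Figure D3:**
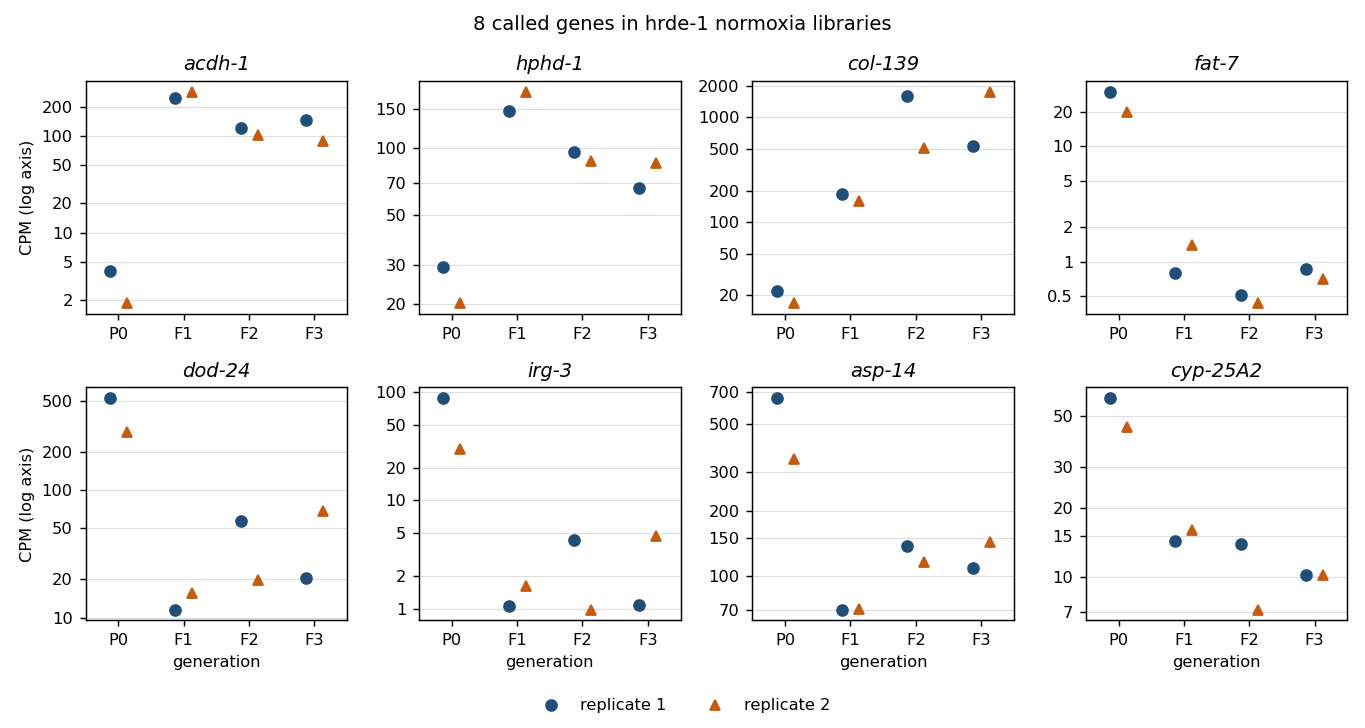
CPM, on log axes, of 8 genes called between F1 to F3 and P0 in each of the 8 libraries, with circles for replicate 1 and triangles for replicate 2. The top row begins with acdh-1, hphd-1 and col-139, which are higher in every later library, and the other 5 genes are lower in every later library.

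The lower genes included several of the response to bacteria and of detoxification. dod-24, a CUB-like domain gene controlled by immune signalling, had 11.5 to 67.9 CPM in F1 to F3, with a median of 20.0, against 526 and 283 CPM in P0. irg-3, an infection response gene, had 0.979 to 4.65 CPM in F1 to F3, with a median of 1.36, against 87.7 and 29.6 CPM in P0. For both, F2 replicate 1 and F3 replicate 2 were the highest of the later libraries and still lay far below P0. The log2 fold changes were -3.83 ± 0.47 for dod-24 and -4.74 ± 0.62 for irg-3, each with an edgeR adjusted p of 0.0437. spp-18, a saposin-like protein gene of the antimicrobial type, was lower by a log2 fold change of -2.51 ± 0.33 (edgeR adjusted p = 0.0437).

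Of the 24 innate immunity genes tested, 3 were called lower and 0 higher, namely dod-24, irg-3 and spp-18, against 0.221% and 0.0571% of all genes, and 8 lay below P0 in all later libraries, against 10.4%. The median of the list was -0.33 on the log2 scale. Other members did not pass. The lysozyme gene lys-1 had 179 to 511 CPM in F1 to F3, against 217 and 81.6 CPM in P0, and T24B8.5, a target of the PMK-1 p38 pathway, had a log2 fold change of 0.37 with an edgeR adjusted p of 0.679. Among C-type lectin genes, a list added after values were seen, 3 of 104 tested were called lower and 0 higher, against 0.221% and 0.0571% of all genes. The median of the list was -0.26. clec-3 had 0 to 0.85 CPM in F1 to F3, against 50.5 and 15.6 CPM in P0, and clec-17 had 0 to 1.47 CPM in F1 to F3, against 15.4 and 13.9 CPM in P0.

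asp-14, an aspartyl protease gene, had 70.1 to 144 CPM in F1 to F3, with a median of 113, against 660 and 345 CPM in P0, a log2 fold change of -2.27 ± 0.23 (SE; edgeR adjusted p = 0.0313). Its lowest libraries were those of F1, at 70.1 and 70.9 CPM. The 3 neighbouring cytochrome P450 genes of chromosome III, cyp-25A1, cyp-25A2 and cyp-25A3, between positions 3832591 and 3839735, were lower together, by log2 fold changes of -2.36, -2.15 and -1.97. cyp-25A1 had 4.35 to 14.6 CPM in F1 to F3, against 53.6 and 32.4 CPM in P0, and cyp-25A3 had 3.57 to 4.51 CPM in F1 to F3, against 14.1 and 16.8 CPM in P0. As adjacent paralogs they may share reads. These 3 were the called members of 42 cytochrome P450 genes tested, a list added after values were seen, whose median was -0.56. Of all genes, 0.221% were called lower. The glutathione transferase gene gst-38 had 0.796 to 3.26 CPM in F1 to F3, against 154 and 19.4 CPM in P0, so that its P0 replicates differed widely while both stayed above all later libraries.

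A further set of lower genes belonged to the cuticle and to the developing epidermis, and those named here were far higher in P0 replicate 2 than in P0 replicate 1. dpy-14, a cuticle collagen gene, had 1.21 to 5.66 CPM in F1 to F3, against 20.6 and 281 CPM in P0. The cuticlin gene cut-3 had 0 to 1.41 CPM in F1 to F3, against 3.95 and 30.02 CPM in P0, and nhr-25, a nuclear receptor gene of epidermal development and molting, had 2.28 to 3.63 CPM in F1 to F3, against 11.7 and 38.8 CPM in P0. The collagen genes col-74 and col-121 followed the same pattern. The collagen list as a whole went the other way, with a median log2 ratio of -0.72 for P0 replicate 2 over replicate 1. Of its 139 tested genes, 59 were more than 2-fold lower in P0 replicate 2 and 13 were higher. In the molting list of 30 genes, 9 were higher and 3 lower. Of the 31 lower genes, 14 were more than 2-fold higher in P0 replicate 2, 5 were more than 2-fold higher in P0 replicate 1, and 12 had P0 replicates within 2-fold. Early embryonic genes also separated the P0 replicates, with 8 of 15 tested members more than 2-fold higher in replicate 2 and 0 lower, against 14.9% and 5.5% of all genes, and a median log2 ratio of 1.48. The summed level of the early embryonic list did not separate them, at 700 CPM in P0 replicate 1 and 694 CPM in P0 replicate 2. P0 replicate 2 had the smaller summed level of eggshell and oocyte genes, 14561 CPM against 25038 CPM in P0 replicate 1. Whether the embryos or larvae held in these samples set the cuticle genes was not tested. In bulk samples, fewer cells of a type and less RNA per cell cannot be told apart.

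The other higher genes were of several kinds. col-139, a cuticle collagen gene, had 160 to 1760 CPM in F1 to F3, with a median of 518, against 22.1 and 16.7 CPM in P0 (log2 fold change 4.93 ± 0.69, edgeR adjusted p = 0.0454), and its 2 highest libraries were F2 replicate 1 at 1597 CPM and F3 replicate 2 at 1760 CPM. oac-20, an acyltransferase-like gene, had 16.3 to 34.8 CPM in F1 to F3, against 5.47 and 5.18 CPM in P0. Smaller and tighter increases were seen in cpz-1, a cathepsin Z-type protease gene that acts in molting, in atn-1, the α-actinin gene of muscle, and in far-2, a fatty acid and retinol binding protein gene. cpz-1 had 344 to 422 CPM in F1 to F3, against 166 and 182 CPM in P0, a log2 fold change of 1.1 ± 0.16 (SE; edgeR adjusted p = 0.0454). atn-1 had 139 to 272 CPM in F1 to F3, against 108 and 87.4 CPM in P0, and its F1 libraries lay between P0 and the 4 libraries of F2 and F3. amt-1, an ammonium transporter gene, had 181 counts over the 6 later libraries and 2 counts over the P0 libraries, a ratio of 34.9 with a 95% interval of 9.51 to 290.1 that covers counting error only.

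The summed level of the ribosomal protein genes was 62697 and 65075 CPM in P0, 72864 and 80654 CPM in F1, 91210 and 84262 CPM in F2, and 96732 and 97586 CPM in F3, so that with this scaling no generation overlapped the one before it. Without overlap between any neighbouring generations, 46 genes were higher in each generation (0.328% of genes tested) and 15 were lower in each (0.107%). Of the 46, 26 were ribosomal protein genes, out of 77 tested. rpl-2, a protein gene of the large subunit, had 2121 and 2453 CPM in P0, 2829 and 3208 CPM in F1, 3653 and 3296 CPM in F2, and 4070 and 4131 CPM in F3, and 62 of the 77 genes lay above both P0 libraries in all later ones, against 7.9% of all genes.

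The steps were small, and the test called none of the 77 genes. The median log2 fold change over the shared P0 libraries was 0.27 for F1, 0.47 for F2 and 0.59 for F3. At an unadjusted p under 0.05 there were 57 genes higher over F1 to F3 and 0 lower, against 8.24% and 11.4% of all genes tested, and DESeq2 called 17 higher and 0 lower, against 3.97% and 3.75%. For rpl-2 the log2 fold change was 0.62 (edgeR adjusted p = 0.114). The order depended on the scaling. With DESeq2 size factors 20 ribosomal protein genes were higher in each generation, and with library totals there were 0, with 1 of 77 above both P0 libraries in all later ones, when the sums were 71055 and 81780 CPM in P0, 70344 and 74008 CPM in F1, 86236 and 79760 CPM in F2, and 87804 and 95212 CPM in F3. Scaling by totals moved the median of all genes in F3 against P0 to -0.42, against -0.08 with TMM factors, while the ribosomal median was 0.25, still above that of all genes.

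Vitellogenin genes, which encode the yolk proteins that the adult intestine makes for oocytes, were higher in every later library than in either P0 library, all 6 of them and under each of 3 scalings. Their summed level was lowest in F3 replicate 2 (122820 CPM) and highest in F3 replicate 1 (177650 CPM) among the later libraries, against 78134 and 61988 CPM in P0. vit-3 had 15419 to 27365 CPM in F1 to F3, against 8422 and 3536 CPM in P0. The largest gap was in vit-1, named after its values were seen, with 7923 to 12798 CPM in F1 to F3, against 3118 and 505 CPM in P0. The edgeR test called 0 of 6, with 6 higher at an unadjusted p under 0.05, against 8.24% of all genes, and DESeq2 called 6 higher, against 3.97%. The median log2 fold change was 1.497, and edgeR adjusted p ran from 0.0751 for vit-3 to 0.115 for vit-2. These genes are near-identical copies in part, so reads may be split between them.

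**Figure D4:**
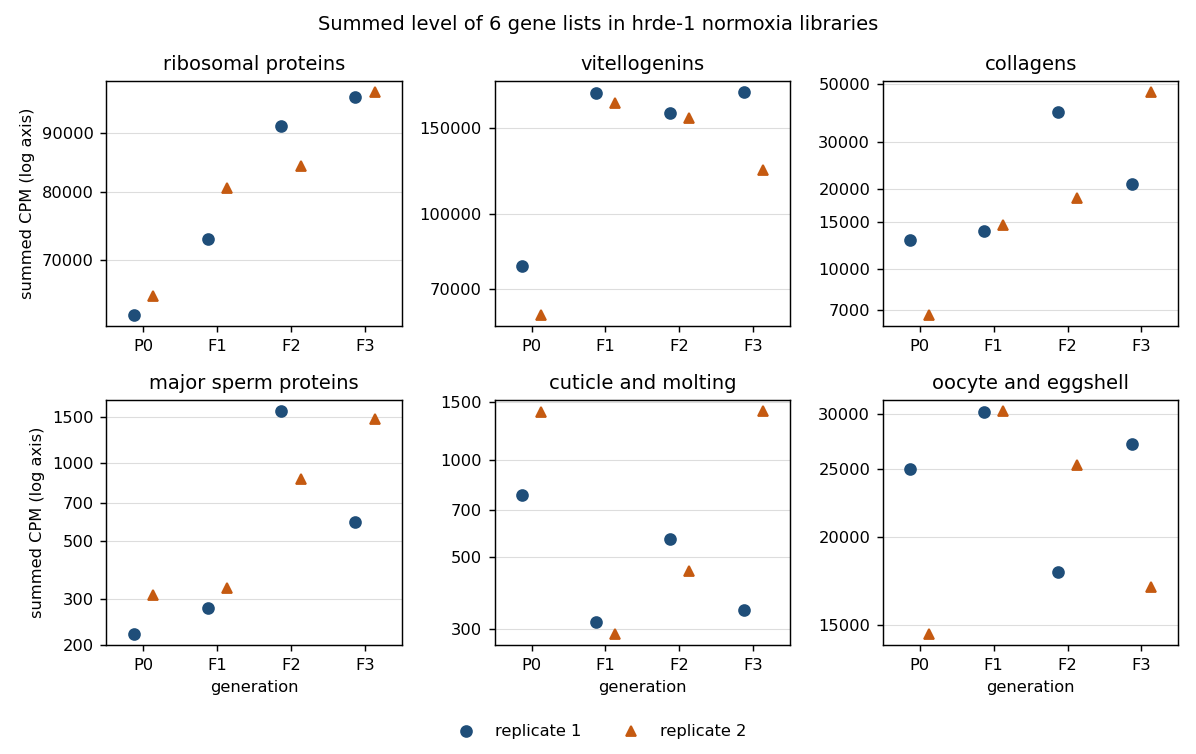
Summed CPM of the members of 6 gene lists in each library, on log axes that do not start at 0, with circles for replicate 1 and triangles for replicate 2. Ribosomal protein sums are higher in each generation, vitellogenin sums are higher in all later libraries than in P0, and collagen, major sperm protein and oocyte sums separate F2 replicate 1 and F3 replicate 2 from their replicates.

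Major sperm protein genes, whose products drive sperm crawling and signal to oocytes, summed to 220 and 310 CPM in P0, 278 and 331 CPM in F1, 1577 and 865 CPM in F2, and 590 and 1475 CPM in F3. F2 replicate 1 and F3 replicate 2 were the highest, and the other library of each of those generations still lay above all of P0 and F1. Of 30 members tested, the edgeR test called 0 in F1 to F3 against P0, with 27 higher at an unadjusted p under 0.05, against 8.24% of all genes, and DESeq2 called 23 higher, against 3.97%. Between F1 and F2 or F3, edgeR called 0 genes. DESeq2 called 21 of the 30 higher in F3 than in F1, against 407 of all 14011 genes tested. Over the shared P0 libraries, the median log2 fold change was 0.20 for F1, 2.22 for F2 and 1.94 for F3. msp-50 had 4.43 and 7.58 CPM in P0, 8.22 and 7.70 CPM in F1, 40.5 and 31.7 CPM in F2, and 18.1 and 35.4 CPM in F3. The wider sperm list had a median of 1.21 over F1 to F3, with 0 of 33 called, 17 at an unadjusted p under 0.05 and 12 called higher by DESeq2. These copies are nearly identical, so values of single members are uncertain.

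Cuticle collagen genes followed the 2 libraries that stood apart. Their sum was 12887 and 6701 CPM in P0, 13895 and 14687 CPM in F1, 39168 and 18460 CPM in F2, and 20855 and 46426 CPM in F3. Of 139 tested, 1 was called higher (col-139) and 3 lower (col-74, col-121 and dpy-14) in F1 to F3 against P0, against 0.0571% and 0.221% of all genes. Over the shared P0 libraries, the median log2 fold change of the collagen genes was -1.14 for F1, 1.51 for F2 and 1.85 for F3, and 0.91 over F1 to F3. Of 30 genes of cuticle formation and molting, 1 was called lower (nhr-25) and 0 higher, against 0.221% and 0.0571% of all genes. At an unadjusted p under 0.05, 12 were lower, against 11.4% of all genes, and the median was -1.51. Their sum was 780 and 1400 CPM in P0, 316 and 290 CPM in F1, 570 and 452 CPM in F2, and 344 and 1411 CPM in F3. F1 was thus below P0, while F3 spanned the range of P0. fbn-1, a fibrillin-like gene of the epidermal matrix, had 3.48 to 14.1 CPM in F1 to F3, against 22.7 and 93.5 CPM in P0 (log2 fold change -3.15, edgeR adjusted p = 0.0505).

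Replicates of one generation differed in many genes. More than 2-fold differences between replicates were counted for 2864 genes in P0 (20.4% of genes tested), for 1287 in F1 (9.19%), for 3013 in F2 (21.5%) and for 4047 in F3 (28.9%). In F3 they ran mostly one way, 3533 genes higher in replicate 2 (25.2%) and 514 lower (3.67%), and in F2 mostly the other, 634 higher (4.53%) and 2379 lower (17%). Between the F3 replicates, 108 of 139 collagen genes were higher in replicate 2 and 4 lower, with a median log2 ratio of 4.05, and in F2 5 were higher and 84 lower, with a median of -1.53. In the molting list 24 of 30 genes were more than 2-fold higher in F3 replicate 2 and 0 lower, with a median of 2.86. Single collagen genes differed by orders of magnitude, such as col-63 at 0.0723 CPM in F3 replicate 1 and 192 CPM in F3 replicate 2, and col-73 at 0.579 and 516 CPM. In F1 col-73 was at 0.530 and 4.34 CPM. In the collagen list 47 genes were more than 2-fold higher in F1 replicate 2 and 10 lower, against 4.2% and 4.98% of all genes, with a median log2 ratio of 0.22.

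The replicate ratios of muscle, sperm and neuropeptide genes had the sign of the collagens in F2 and F3, and those of germline genes had the other sign. In F3 replicate 2 over replicate 1 the median log2 ratio was 1.29 for major sperm protein genes, 0.86 for muscle markers and 0.68 for neuropeptide genes, against -0.66 for oocyte and eggshell genes and -0.48 for meiosis and germline genes. In F2 the same medians were -0.87, -0.85 and -0.54, against 0.52 and 0.24. Ribosomal protein genes were at 0.01 in F3 and -0.08 in F2. unc-54, the major myosin heavy chain of body muscle, had 1622 and 1978 CPM in P0, 2557 and 2544 CPM in F1, 5865 and 3191 CPM in F2, and 4416 and 6899 CPM in F3. Its later libraries lay above P0 throughout, and the 2 libraries that stood apart were the highest (log2 fold change over P0 1.16, edgeR adjusted p = 0.111).

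**Figure D5:**
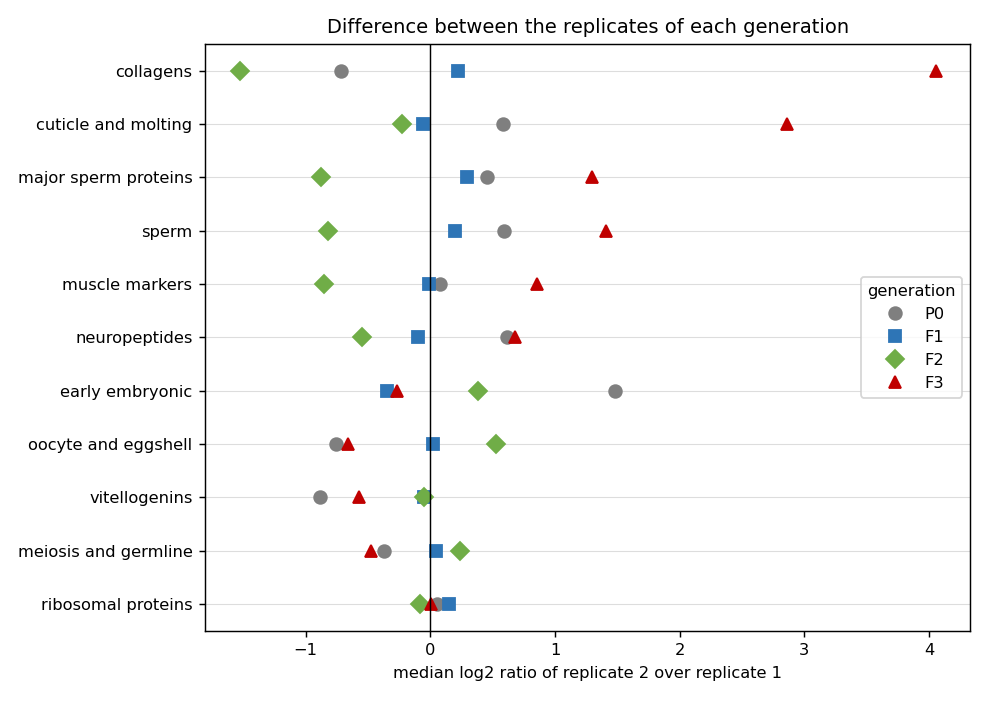
Median log2 ratio of replicate 2 over replicate 1 for 11 gene lists, with a marker for each generation. The lists lie on opposite sides of 0 in F2 and F3 for collagen, molting, sperm, muscle and neuropeptide genes on one hand and oocyte and germline genes on the other, and near 0 for ribosomal protein genes.

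Heat shock genes also separated single libraries from their replicates. hsp-70, an inducible chaperone gene, had 59.6 and 49.8 CPM in P0, 394 and 250 CPM in F1, 40.1 and 418 CPM in F2, and 520 and 46.3 CPM in F3. F2 replicate 1 and F3 replicate 2 were thus at the level of P0, and the other 4 later libraries were more than 4-fold above it. Scaled over all 32 libraries, hrde-1 hypoxia had 604 and 607 CPM in F2 and 35.0 and 49.8 CPM in F3. WT hypoxia had 312 and 598 CPM in F2 and 54.1 and 79.0 CPM in F3, and WT normoxia had 40.1 and 62.5 CPM in F3. Against those groups, F2 replicate 1 was at the level of F3 and F3 replicate 1 at the level of F2, and why was not tested. Of 24 heat shock and unfolded protein response genes tested, the edgeR test called 0, with 6 higher and 3 lower at an unadjusted p under 0.05, against 8.24% and 11.4% of all genes, and DESeq2 called 2 higher and 2 lower, against 3.97% and 3.75%. The median was 0.62. xbp-1, a transcription factor gene of the endoplasmic reticulum stress response, did not share that split, with 265 and 288 CPM in P0, 387 and 311 CPM in F1, 570 and 519 CPM in F2, and 552 and 575 CPM in F3 (log2 fold change over P0 0.78, edgeR adjusted p = 0.0841). Of 11 mitochondrially encoded genes tested, 7 were more than 2-fold lower in F2 replicate 2 and 2 were higher. In F3, 2 were higher in replicate 2 and 0 lower. The median replicate ratio of this list thus had the sign of the collagens in F2 and F3. Its sum was 11977 and 4731 CPM in F2, and 6368 and 6848 CPM in F3. Within the list, nduo-2 and nduo-3 differed between replicates without following that split, with nduo-3 at 0.277 and 37.1 CPM in P0 and at 1.27 and 42.6 CPM in F2. Ribosomal RNA genes took 0.559% to 5.49% of the counts, lowest in F1 replicate 1 and highest in F2 replicate 2.

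Genes reported as targets of the nuclear RNAi pathway, did not pass the test of F1 to F3 against P0. Their summed level was already far above WT in P0, with 1121 and 847 CPM in hrde-1 and 46.9 and 49.9 CPM in WT, scaled over all 32 libraries. Of 11 tested, edgeR called 0, with 0 at an unadjusted p under 0.05 and 0 by DESeq2. Over the shared P0 libraries, their median log2 fold change was 0.57 for F1, 0.24 for F2 and 0.24 for F3. C38D9.2 had 272 and 182 CPM in P0, 290 and 326 CPM in F1, 208 and 307 CPM in F2, and 323 and 213 CPM in F3. F15D4.5 had 379 and 249 CPM in P0, 452 and 485 CPM in F1, 314 and 428 CPM in F2, and 490 and 309 CPM in F3. In both genes the lower library of F2 and of F3 was the one that stood apart, and its level was within the range of P0. The values of F07B7.1 and W09B7.1 were identical, as were those of F07B7.2 and W09B7.2, so these pairs share reads. Each pair carries the information of 1 gene, though the 11 genes, the sums and the medians given here include both copies. In 1 of the 11, R06C1.4, the change of F1 and F3 over P0 differed from that in WT, with 0.18 ± 0.16 in hrde-1 and -1.498 ± 0.17 in WT, a difference of 1.68 ± 0.24 on the log2 scale (edgeR adjusted p = 0.00651).

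Genes of the machinery itself were not called. Of 26 genes of nuclear RNAi and heterochromatin, edgeR called 0, with 1 higher and 2 lower at an unadjusted p under 0.05 and 0 by DESeq2, and the median was 0.05. nrde-2, a nuclear RNAi factor, had 128 to 167 CPM in F1 to F3, against 91.5 and 106 CPM in P0 (log2 fold change 0.52, edgeR adjusted p = 0.169). set-25, a histone H3 lysine methyltransferase gene, had 20.2 to 40.1 CPM in F1 to F3, against 47.5 and 41.8 CPM in P0 (log2 fold change -0.68, edgeR adjusted p = 0.13). Of 41 small RNA pathway genes edgeR called 0, with 1 higher at an unadjusted p under 0.05 and 0 by DESeq2, and the median was 0.03. hif-1, the hypoxia-inducible factor gene, had 138 to 233 CPM in F1 to F3, against 165 and 203 CPM in P0, and of 19 genes of its pathway edgeR called 0, with 3 higher and 2 lower at an unadjusted p under 0.05 and 1 called higher by DESeq2. Of all genes, 8.24% were higher and 11.4% lower at that unadjusted p, and DESeq2 called 3.97% higher and 3.75% lower. The small RNA pathway list thus held fewer genes at that unadjusted p than the share of all genes. Counts this small do not set the other lists apart from all genes, and no list was tested as a set.

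To see whether the shift from P0 was shared by untreated wild type, the log2 fold change of F1 and F3 over P0 in hrde-1 normoxia was compared with that in WT normoxia. The 2 differed in 556 of 15242 genes by edgeR (3.65%), 85 with a higher change in hrde-1 (0.558%) and 471 with a lower one (3.09%). Among sperm genes, 27 of 30 major sperm protein genes had a lower change in hrde-1, with a median difference of -4.11, against -0.03 over all genes. Scaled over all 32 libraries, the summed level in hrde-1 was 214 and 317 CPM in P0, 279 and 332 CPM in F1, and 596 and 1471 CPM in F3. In WT it was 21.7 and 37.8 CPM in P0, 932 and 1065 CPM in F1, and 1509 and 1256 CPM in F3. P0 was thus higher in hrde-1 than in WT, while F1 was lower. alg-3 and alg-4, Argonaute genes of sperm formation, differed in the same direction, by -6.38 and -6.45 on the log2 scale (edgeR adjusted p = 0.00309 and 0.00651).

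For the genes called within hrde-1, 3 of the 39 differed from WT in their change, against 3.65% of all genes. The 39 were picked by their change in hrde-1 libraries that also enter this comparison, which favours a difference. acdh-1 had a log2 fold change of 6.002 ± 0.44 in hrde-1, against 5.04 ± 0.45 in WT, a difference of 0.96 ± 0.57 (SE; edgeR adjusted p = 0.474). Its level in WT was 0.958 and 0.561 CPM in P0, 18.1 and 21.1 CPM in F1, and 39.1 and 26 CPM in F3. fat-7 had -4.64 ± 0.34 in hrde-1 and -6.20 ± 0.38 in WT, a difference of 1.56 ± 0.53 (edgeR adjusted p = 0.167). dod-24 had -3.97 ± 0.49 in hrde-1 and -3.97 ± 0.48 in WT, a difference of 0.01 ± 0.71 (edgeR adjusted p = 1). The 3 that differed were cyp-25A1 and cyp-25A2, which were lowered less in hrde-1 than in WT, and amt-1. 0 of 77 ribosomal protein genes and 0 of 6 vitellogenin genes differed by edgeR, with median differences of -0.06 and 0.28. WT ribosomal protein sums were 59789 and 58126 CPM in P0, 102850 and 95050 CPM in F1, and 88128 and 85467 CPM in F3, so that F3 did not lie above F1 there.

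Against the hrde-1 hypoxia groups, the change of F1 to F3 over P0 differed in 15 of 14458 genes by edgeR (0.104%), 4 with a higher change under normoxia (0.0277%) and 11 with a lower one (0.0761%). For fat-7 the log2 fold change was -5.06 ± 0.34 under normoxia and -1.71 ± 0.36 under hypoxia, a difference of -3.35 ± 0.55 (edgeR adjusted p = 0.0479). The call ended with DESeq2 size factors, the filter of 5 CPM, the replicate block and without any one of 5 libraries. The hypoxia P0 libraries already had low levels, with 2.96 and 4.95 CPM, and the later hypoxia libraries had 0.359 to 2.61 CPM. asp-14 had changes of -2.28 ± 0.19 under normoxia and 0.14 ± 0.21 under hypoxia (difference -2.42 ± 0.30, edgeR adjusted p = 0.0121).

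acdh-1 was higher in the later libraries of both treatments, by 5.66 ± 0.34 under normoxia and 4.45 ± 0.31 under hypoxia, a difference of 1.21 ± 0.36 (edgeR adjusted p = 0.22). It passed in 4 of the 16 alternatives: 1.25 by DESeq2, 1.99 without P0 replicate 1, 1.35 without F3 replicate 2, and 1.28 without both F2 replicate 1 and F3 replicate 2. In the hypoxia groups it had 8.59 and 8.27 CPM in P0, 253 and 348 CPM in F1, 164 and 155 CPM in F2, and 136 and 134 CPM in F3. F1 was the highest generation under both treatments. Ribosomal protein sums under hypoxia were 70651 and 83395 CPM in P0, 86674 and 84506 CPM in F1, 97157 and 97223 CPM in F2, and 97824 and 106480 CPM in F3, and 0 of 77 genes differed in their change by edgeR. Those sums also were lowest in P0 and highest in F3.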

How the data were processed

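Poly(A) RNA of whole worms was read in 32 libraries. The values in the deposited table are estimated counts, not normalized by the authors, and some are not whole. RSEM, featureCounts, Bowtie2, edgeR and cutadapt 2.5 stand in the submitters' processing notes, with no order. The authors' genome build was not given in the sources used here. Libraries were made with a NEXTflex qRNA-Seq kit, per the labels' protocols, a type of kit sold with molecular labels, and whether those were used in counting is not stated. Of 46904 gene IDs, 46817 (99.8%) matched the WBcel235 annotation, which gave the 1-based coordinates. The F2 WT normoxia columns hold many fractions that look like averages and were not used in the comparison with WT.

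Counts were rounded to whole numbers and tested with edgeR 4.0.16 in R 4.3.3 (TMM factors, filterByExpr, glmQLFit, glmQLFTest), with 1 mean per generation in a fit of the 8 libraries and Benjamini-Hochberg adjustment over all genes tested. F1 to F3 is the average of the 3 generation means. CPM uses TMM-scaled library sizes, and log2 CPM for correlations and replicate ratios a prior count of 2. Comparisons with WT (12 libraries) and hypoxia (16 libraries) are interaction terms. Standard errors were derived from each log2 fold change and its F statistic. On simulated counts for F1 to F3 against P0 with 13605 genes, 77 of 100 genes changed by 2 on the log2 scale and 99 of 100 changed by 4 were called, and so were 9 unchanged genes. Counts were drawn independently for each gene and library, without shifts shared by many genes between replicates, and no low-count gene was changed. Alternatives were DESeq2 1.42.0 (itself, or its size factors), no filter, 5 CPM in 2 libraries, a replicate block, larger fits, and leaving out libraries.

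The libraries and gene lists were chosen with earlier results of these data known, and 4 lists (propionate and vitamin B12, C-type lectins, cytochrome P450, dod genes) were added after values were seen. Of 10 dod genes, 9 were tested and 2 called lower, against 0.221% of all genes. Named genes are hrde-1, hif-1, the nuclear RNAi targets, called genes with the largest changes whose groups do not overlap, the list members with the smallest p, and those with the largest replicate ratios. Other list members and cyp-25A2 were named after their values were seen. Lists are described by counts and medians without a test of the list.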

Additional observations from a re-analysis of the deposited data

Results flagged for a closer look

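The change of F1 and F3 over P0 differed between hrde-1 normoxia and WT normoxia in 556 genes by the interaction test of edgeR. Of the 39 genes called within hrde-1 normoxia, 3 were among them, against 3.65% of all genes. The 39 were picked by their change in libraries that also enter this test, which favours a difference. The differences (hrde-1 minus WT) were 4.93 for amt-1, 2.56 for cyp-25A1 and 1.64 for cyp-25A2 on the log2 scale. amt-1 rests on 2 counts in P0 of hrde-1, and its call ended without any one of the 4 P0 and F1 libraries and with the replicate block. For cyp-25A1 it ended without P0 replicate 2 or either F1 library.

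The change of F1 to F3 over P0 differed between hrde-1 normoxia and hrde-1 hypoxia in 15 genes by the same kind of test. Of the 39, 5 were among them, against 0.104% of all genes. The 39 were picked by their change in libraries that also enter this test, which favours a difference. The differences (normoxia minus hypoxia) were -3.74 for T14B1.1, -2.42 for asp-14, -2.95 for cyp-25A3, -3.35 for fat-7 and 1.84 for oac-20 on the log2 scale. Without F1 replicate 1 the call of T14B1.1 ended, and without F1 replicate 2 those of T14B1.1 and cyp-25A3. asp-14 and oac-20 kept their calls in all 16 alternatives run for them. No group held enough libraries for a test of single libraries that stand apart from their group.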

How the results depend on the processing

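The counts of called genes depended strongly on the tool, the filter and the libraries, and the cause was not tested. In what follows, counts are given in the order 4 generations together, F1 to F3 over P0, F1 over P0, F2 over P0, F3 over P0, F2 over F1, F3 over F1, difference from WT and difference from hypoxia. DESeq2 gave 1086, 1081, 499, 849, 834, 191, 416, 1086 and 275. The fit of all 32 libraries gave 4406, 4056, 2356, 3066, 3099, 1317, 2239, 1792 and 432, and without the F2 WT normoxia columns, an alternative added after seeing the data, 3940, 3782, 2055, 2769, 2767, 1082, 1887, 1603 and 265. No filter gave 1109, 1037, 353, 726, 717, 153 and 407 for the first 7 and 224 for hypoxia. The fit of 16 hrde-1 libraries gave 1286, 1817, 502, 1144 and 1139 for the first 5. Without both F2 replicate 1 and F3 replicate 2, also added later, there were 6, 458, 62, 5 and 4 for the first 5, 1418 for WT and 1978 for hypoxia. DESeq2 size factors gave 6 for F1 to F3 and 2 for F1. The 5 CPM filter gave 0 for the 4 generations, 2 for F1 to F3 and 1 for F2, and 1 mean over F1 to F3 gave 64.

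Leaving out each library in turn gave ranges of 0 to 929 for the 4 generations, 2 to 700 for F1 to F3, 1 to 162 for F1, 0 to 418 for F2, 0 to 658 for F3, 0 to 309 for F2 over F1, 0 to 951 for F3 over F1, 266 to 1418 for WT and 3 to 993 for hypoxia. For WT the counts were 266 and 309 without an F1 library, 981 without F3 replicate 1 and 1418 without F3 replicate 2. For hypoxia they were 5 and 3 without F1 replicate 1 or 2, 993 and 23 without P0 replicate 1 or 2, and 71 and 625 without F3 replicate 1 or 2. F3 over F2 had 0 calls in all alternatives. None of them exchanged libraries between F2 and F3, and each of these generations held unlike replicates, so the lack of calls does not show that F2 and F3 were alike. Ribosomal protein genes higher in each generation numbered 26 to 33 without single libraries, 20 with DESeq2 size factors and 0 with library totals. Past 4-fold, replicates differed for 625 P0 genes, 173 F1 genes, 739 F2 genes and 1366 F3 genes.

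Same-numbered replicates did not deviate together (r of deviations between -0.605 for F2 with F3 and 0.152 for F1 with F3), so the numbers were not taken to pair libraries. With the replicate block there were 0 calls for the 4 generations, 2 for F1 to F3, 1 for F2 and 8 for hypoxia. Of the values of named genes under the alternatives, 4002 kept their side of the threshold, 388 lost a call, 638 gained one and none changed sign among calls. A list with 0 calls is not shown to be unchanged: on simulated counts 77 of 100 genes changed by 2 on the log2 scale were called, and smaller changes were not simulated. The simulation also left out changes in low-count genes and shifts shared by many genes between replicates, so its share need not hold for these libraries.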

Other observations

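Between the P0 replicates, dsl-3 and zip-7 were among those with the widest ratios, with 0.554 and 0.485 CPM in replicate 1 and 15.3 and 15.9 CPM in replicate 2. Of the neuropeptide genes, 25 of 97 tested lay below both P0 libraries in all 6, against 10.4% of all genes, with a median log2 fold change of -0.75. The edgeR test called 0 of them, with 2 higher and 27 lower at an unadjusted p under 0.05, against 8.24% and 11.4% of all genes. DESeq2 called 1 higher and 2 lower, against 3.97% and 3.75%. nlp-80 had 3.91 to 6.18 CPM in F1 to F3, against 9.70 and 14.5 CPM in P0 (edgeR adjusted p = 0.117). F59H6.5 had 0.139 and 0.232 CPM in P0, 23.3 and 12.9 CPM in F1, 0.680 and 30.2 CPM in F2, and 214 and 1.27 CPM in F3. ZK250.10 had 0 and 0.387 CPM in P0, 9.73 and 7.48 CPM in F1, 0 and 3.81 CPM in F2, and 32.8 and 0.191 CPM in F3. For both genes the 4 highest libraries were both of F1, F2 replicate 2 and F3 replicate 1, which were also the 4 highest for hsp-70.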
